A study of Homo sapiens with 3 samples.

Results

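RNA of a panel of 110 genes was counted in the basal and the luminal subpopulation of MCF10A, an immortalised, non-tumorigenic human mammary epithelial cell line, and the basal library was set against the luminal library. Each subpopulation was represented by 1 library, so no difference below has a replicate check and no p-value is given. The genes compared were those with 10 or more raw counts in either library, which held for 64 of the 110 genes. Of these, 5 were housekeeping genes (RPLP0, ACTB, PSMC4, MRPL19 and SF3A1), and the other 59 are the genes described here. The study, whose title concerns the transcription factor Slug and changes of cell state, also holds 1 library of a stem subpopulation. Growth and treatment were entered in the labels as not applicable, no genetic change or agent was named for either subpopulation, and the labels name an extraction kit for fixed tissue. How the subpopulations were separated is not given in the sources used here, so whether any gene below was itself used for the separation cannot be told. Counts came from the NanoString nCounter, which hybridises a colour-coded probe to each RNA and counts the codes singly, without amplification.

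The mammary gland is built of an inner layer of luminal cells, which line the ducts and give rise to the milk-producing cells, and an outer layer of contractile basal cells. Luminal cells are known for the keratins KRT8, KRT18 and KRT19, the surface glycoprotein CD24 and the hormone receptors, and basal cells for the keratins KRT5, KRT14 and KRT17, P-cadherin and vimentin. Slug, encoded by SNAI2, is a zinc-finger repressor known for its role in basal identity and in the loss of epithelial traits.

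Both libraries were shallow and alike in depth, with 8891 endogenous counts in basal and 9136 in luminal, against 792367 in stem. The 59 genes had a median of 30 counts in basal and 35 in luminal. Background, the mean plus 2 SD of the 8 negative control probes, was 1 count in basal and 1.83 in luminal. The lowest value listed in the counts is 1, so a listed 1 may stand for no count. Counts were scaled within each library to the geometric mean of its 5 housekeeping genes, which was 118 in basal and 138 in luminal, and a normalised count is given per 100 of that mean. Ratios are log2 of the basal over the luminal normalised count. Their 95% intervals are exact, given the sum of the 2 counts, and cover counting error only. Precision followed depth. The median half-width of these intervals on the log2 scale was 1.35 for the 10 genes whose higher count lay from 10 to below 20, 0.87 for the 27 genes from 20 to below 50, 0.52 for the 11 genes from 50 to below 100 and 0.30 for the 11 genes with 100 or more.

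Most of the 59 genes lay close to equal levels, with a tilt towards mitotic genes in basal and CD24 and ESRP1 standing far below in basal. The median log2 ratio was 0.19, and 35 ratios lay above 1 and 24 below. A ratio of 1.5-fold or more was seen for 12 genes higher in basal (20.3%) and 4 lower (6.78%), and of 2-fold or more for 1 gene higher (1.69%) and 2 lower (3.39%). Intervals excluding 1 were found for 10 genes higher in basal (16.9%) and 3 lower (5.08%), and 46 genes had intervals that included 1. Among all 79 genes listed above 1 in either library, the same 10 and 3 genes made up 12.7% and 3.8%. The background share past 1.5-fold among those 79 was 20.3% higher and 15.2% lower, and past 2-fold 5.06% and 11.4%, with genes of very few counts included. The 10 higher were NUF2, UBE2C, BIRC5, TYMS, CCNB1, PHGDH, CEP55, KRT14, VIM and KRT5, and the 3 lower were CD24, ESRP1 and KRT17. When the counting error of the housekeeping scale itself was added, a half-width of 0.29, KRT5 no longer excluded 1 and the other 12 still did. VIM and CEP55 did so narrowly, with log2 lower bounds of 0.016 and 0.018. That half-width leaves out the spread among the 5 housekeeping genes, whose log2 ratios had an SD of 0.55. In RNA from a population of cells, fewer cells with a transcript and less of it per cell cannot be told apart.

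**Figure D1:**
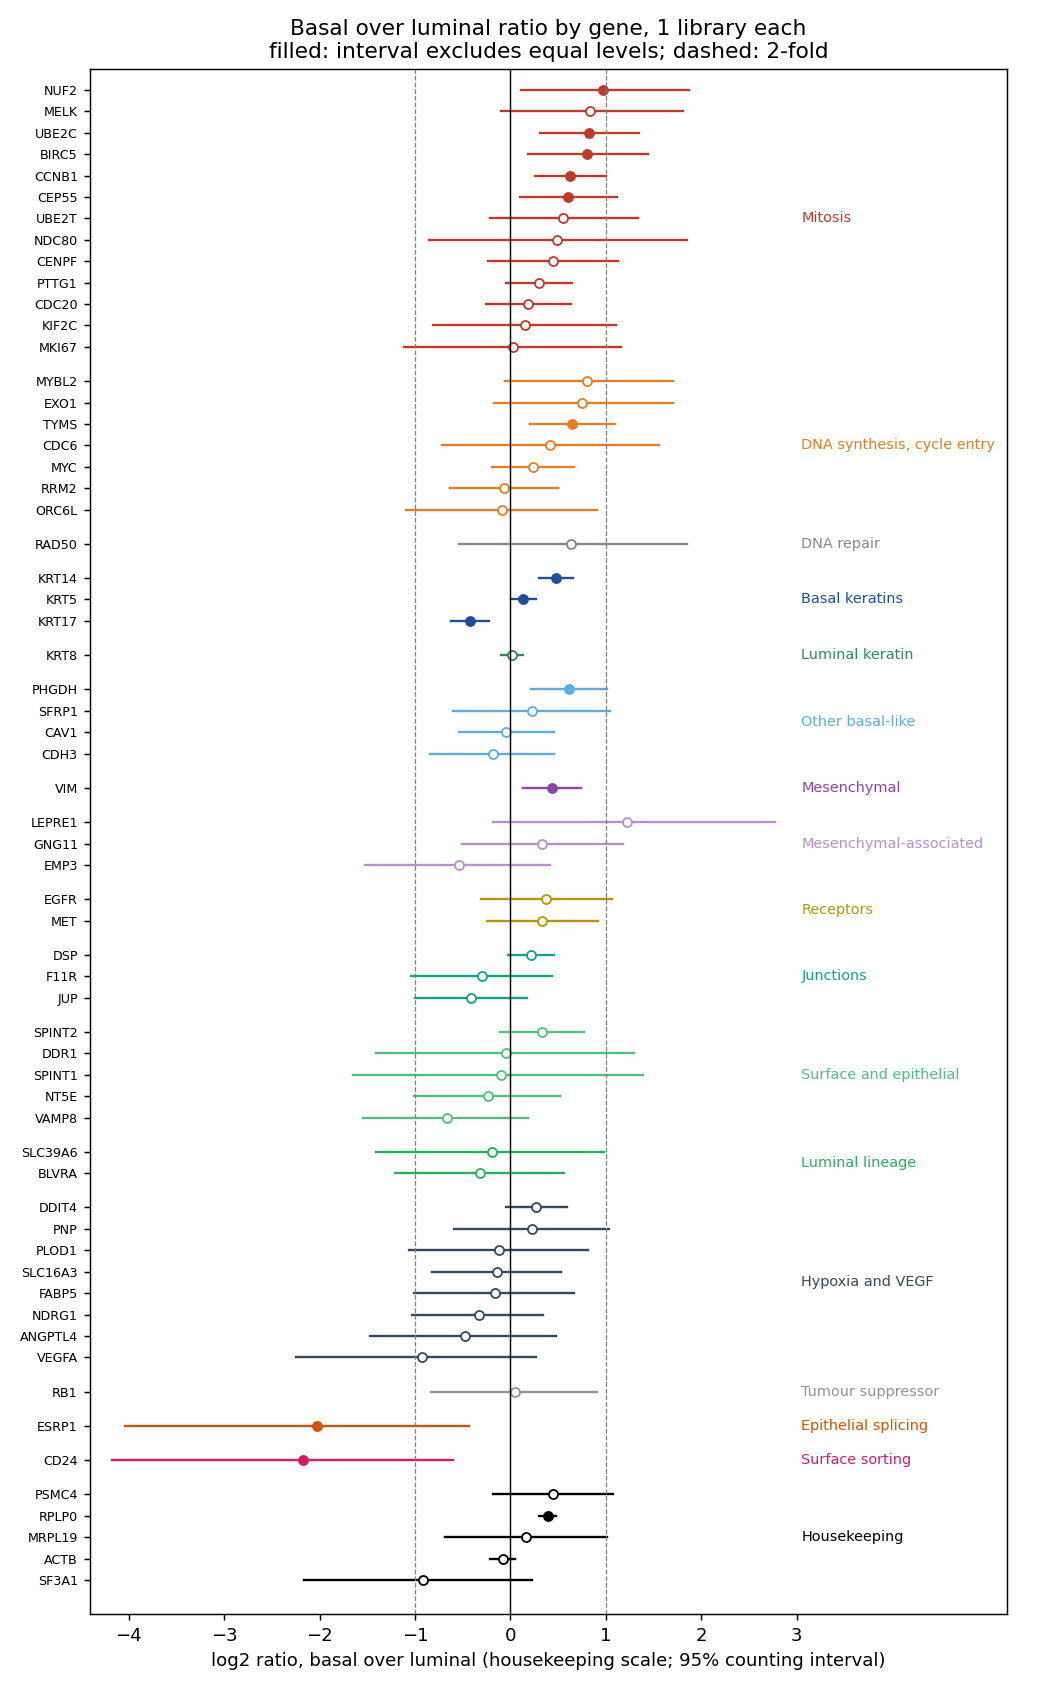
Each row is a gene and the x axis is the log2 ratio of basal over luminal on the housekeeping scale, with the 95% counting interval as a bar. Filled points have intervals that exclude equal levels and the dashed lines mark 2-fold. The mitotic genes at the top all lie right of 0 on this scale, CD24 and ESRP1 lie furthest left, and the remaining genes lie on both sides of 0. Of the tumour suppressors and survival regulators RB1 alone is drawn, so that 56 of the 59 genes and the 5 housekeeping genes are shown.

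The housekeeping genes did not keep fixed proportions, which sets how firmly any single ratio can be read. RPLP0, a protein of the large ribosomal subunit, had 2292 counts in basal and 2040 in luminal and a log2 ratio of 0.39 (0.30 to 0.48). PSMC4, a proteasome ATPase, had 49 counts in basal and 42 in luminal, and MRPL19, a mitochondrial ribosomal protein, had 25 in basal and 26 in luminal. ACTB, which encodes beta-actin, had 828 counts in basal and 1021 in luminal. SF3A1, a splicing factor subunit, had 10 counts in basal and 22 in luminal, or a log2 ratio of -0.92 (-2.16 to 0.22), and it enters the scale with the same weight as the other housekeeping genes. Leaving SF3A1 out lowered every log2 ratio by the same amount, a shift of -0.23. The shift was -0.18 with the total endogenous count as the scale, -0.16 with the median of ratios and 0.11 without PSMC4. Scaling by all 6 spiked positive control probes shifted every ratio by 1.19 and by probes A to D alone by 1.65, since these spikes had 776 counts in basal and 2795 in luminal. Across the 8 scales that do not use the spikes, 6 genes kept intervals that excluded 1 in the same direction: KRT14, CCNB1 and UBE2C higher in basal, and KRT17, CD24 and ESRP1 lower. With the spikes as the scale, KRT14, CCNB1 and UBE2C were still higher, KRT17 turned to higher, and CD24 and ESRP1 had ratios below 1 with intervals that included 1. With the spikes the median of every list of 3 or more of these genes was above 0, so that below the word lower, except for CD24 and ESRP1, refers to the other 8 scales. On those 8, 15 of the 59 genes, all near equal levels, changed sign under at least 1 scale.

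**Figure D2:**
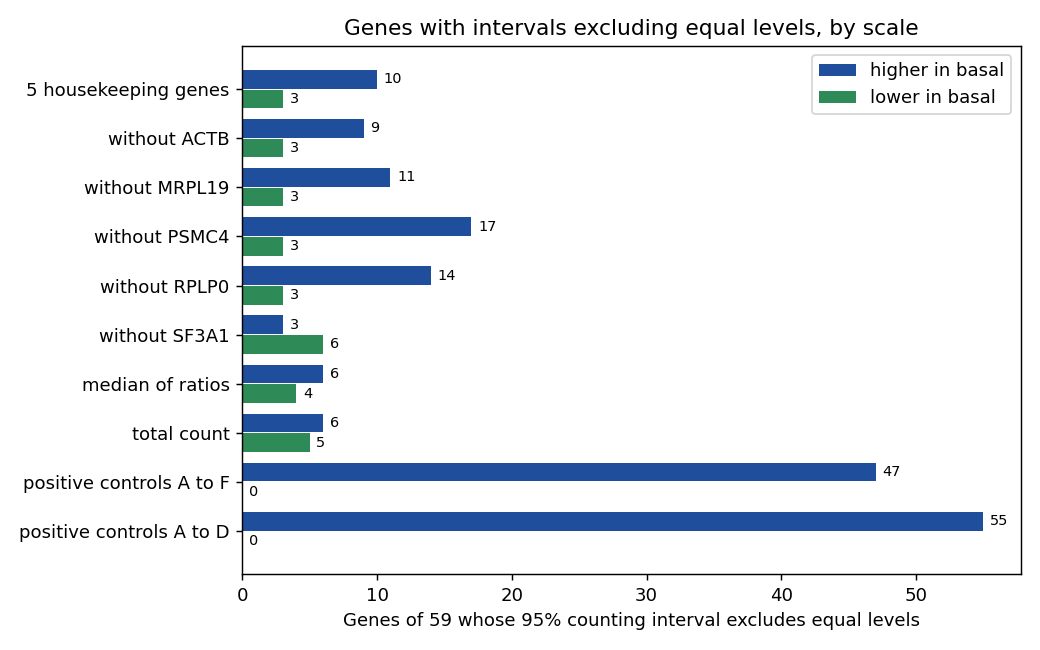
The bars give, for each scale, the number of the 59 genes whose 95% counting interval excludes equal levels, higher in basal (blue) or lower in basal (green). The numbers are 10 and 3 on the scale of 5 housekeeping genes, 3 and 6 without SF3A1, and 55 and 0 on the scale of positive controls A to D.

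Mitosis and cytokinesis genes leaned together towards basal. The panel holds 14 of them, 13 had 10 or more counts, and on the housekeeping scale all 13 ratios lay above 1. However, CDC20, KIF2C and MKI67 turned below 1 without SF3A1, and KIF2C and MKI67 did so under total count and the median of ratios too. Intervals excluded 1 for 5 of the 13, all higher, against 16.9% of the 59 genes. Their median log2 ratio was 0.55, against 0.19 for the 59 genes, and 10 of the 13 stood above that median, a position that does not depend on the scale. As a share of the endogenous count, which amounts to the total count as the scale, the 13 genes made up 8.67% in basal (8.10 to 9.28, Wilson 95% interval) and 6.91% in luminal (6.41 to 7.45). The 14th, the cytokinesis scaffold ANLN, had 9 counts in basal and 7 in luminal and lay just outside the limit of 10, whereas the collagen receptor DDR1, with 10 in basal and 12 in luminal, and the protease inhibitor SPINT1, with 8 in basal and 10 in luminal, lay just inside.

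Of 4 genes of chromosome attachment, NUF2 stood apart from equal levels. NUF2, a subunit of the NDC80 kinetochore complex, had 32 counts in basal and 19 in luminal, for a log2 ratio of 0.97 (0.11 to 1.87). Its partner NDC80 had 12 counts in basal and 10 in luminal and a log2 ratio of 0.48 (-0.85 to 1.85). CENPF, a kinetochore-associated protein, had 42 counts in basal and 36 in luminal, and KIF2C, a kinesin that depolymerises microtubules at centromeres, had 20 in basal and 21 in luminal. NUF2 thus exceeded counting error, and the other 3 did not.

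Among the drivers of mitotic entry and exit, CCNB1, the cyclin that activates CDK1 for mitosis, had 143 counts in basal and 108 in luminal. Its normalised count was 121 (102 to 142, exact Poisson interval) in basal and 78.3 (64.2 to 94.5) in luminal, 1.54-fold higher, and these 2 intervals did not overlap. UBE2C, the ubiquitin-conjugating enzyme of the anaphase-promoting complex, had 82 counts in basal and 54 in luminal, 1.77-fold higher. CDC20, the activator of that complex, had 86 counts in basal and 88 in luminal, or a log2 ratio of 0.19 (-0.26 to 0.63). PTTG1, the securin that is degraded at anaphase, had 146 counts in basal and 138 in luminal, for a log2 ratio of 0.30 (-0.04 to 0.65). The enzyme UBE2C and the cyclin were thus higher in basal beyond counting error, while on the housekeeping scale the intervals of the activator and the securin included 1. PTTG1 excluded 1 without PSMC4 and without RPLP0.

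BIRC5, which encodes survivin of the chromosomal passenger complex, had 57 counts in basal and 38 in luminal, 1.75-fold higher. CEP55, which recruits the abscission machinery to the midbody, had 77 counts in basal and 59 in luminal and a log2 ratio of 0.61 (0.10 to 1.12). MELK, a kinase expressed in proliferation, had 26 counts in basal and 17 in luminal, or a log2 ratio of 0.83 (-0.10 to 1.81). UBE2T, the ubiquitin-conjugating enzyme of the Fanconi anaemia pathway, had 34 counts in basal and 27 in luminal, and MKI67, the Ki-67 protein that coats mitotic chromosomes, had 14 in basal and 16 in luminal. BIRC5 and CEP55 exceeded counting error on the housekeeping scale, and the intervals of MELK, UBE2T and MKI67 included 1. Without SF3A1 in the scale NUF2, CEP55 and BIRC5 came within counting error of 1, and NUF2 and CEP55 did so under total count and the median of ratios too, whereas MELK excluded 1 without PSMC4.

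The promoters of CCNB1, CEP55 and NUF2 are shown because these genes were higher in basal with intervals excluding 1 and because promoters of mitotic genes are known for CCAAT boxes, bound by NF-Y, and for the cell cycle genes homology region TTTGAA, bound by the DREAM and MYB-MuvB complexes. The sequences are from RefSeq on GRCh38.p14, plus strand, from 250 bases before to 50 bases after the annotated start, at chr5:69166900-69167199, chr10:93496362-93496661 and chr1:163321704-163322003. Capitals mark CCAAT or TTTGAA on either strand, reading as ATTGG or TTCAAA on the opposite one.
CCNB1: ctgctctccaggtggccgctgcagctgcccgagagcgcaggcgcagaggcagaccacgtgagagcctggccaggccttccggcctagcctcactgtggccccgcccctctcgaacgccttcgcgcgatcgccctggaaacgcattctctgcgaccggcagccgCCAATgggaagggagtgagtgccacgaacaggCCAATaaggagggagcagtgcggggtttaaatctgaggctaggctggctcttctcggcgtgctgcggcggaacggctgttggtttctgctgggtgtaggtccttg
CEP55: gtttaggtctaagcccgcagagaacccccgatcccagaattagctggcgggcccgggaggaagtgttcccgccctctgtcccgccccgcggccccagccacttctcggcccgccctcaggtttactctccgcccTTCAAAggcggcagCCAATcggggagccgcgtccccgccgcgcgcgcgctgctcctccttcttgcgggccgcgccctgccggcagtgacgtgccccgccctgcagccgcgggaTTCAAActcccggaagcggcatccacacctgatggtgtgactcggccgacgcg
NUF2: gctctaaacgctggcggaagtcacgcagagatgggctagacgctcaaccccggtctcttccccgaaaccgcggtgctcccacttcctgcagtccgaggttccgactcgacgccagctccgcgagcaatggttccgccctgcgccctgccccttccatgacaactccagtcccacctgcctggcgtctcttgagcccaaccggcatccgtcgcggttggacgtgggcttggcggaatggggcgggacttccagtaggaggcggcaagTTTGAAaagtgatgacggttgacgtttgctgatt
CCNB1 held 2 CCAAT and 0 TTTGAA matches, CEP55 held 1 and 2, and NUF2 held 0 and 1, and matches of the 2 motifs did not overlap in these windows. Of the 13 mitotic genes 11 had a promoter in the table, and TTTGAA was present in 7 of these (63.6%), against 1 of 38 of the other genes with 10 or more counts (2.63%) and 15.4% of 27305 human promoters of the same length. CCAAT was present in 7 of 11 (63.6%), against 13 of 38 (34.2%) and 35.7% of all promoters. CAGGTG, the E-box letters that Slug is known to bind, was present in 3 of 11 (27.3%), against 8 of 38 (21.1%) and 20.6% of all promoters. These motifs were chosen with the counts known, and a match is a run of letters only.

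Genes of DNA synthesis and cell cycle entry went both ways. Of 8 on the panel 7 had 10 or more counts, 5 had ratios above 1 and 2 below, against 35 and 24 of the 59 genes, and 1 had an interval that excluded 1, a share near the 16.9% of the 59. That gene was TYMS, thymidylate synthase, with 101 counts in basal and 75 in luminal, 1.57-fold higher. MYBL2, the B-MYB transcription factor of mitotic genes, had 30 counts in basal and 20 in luminal, for a log2 ratio of 0.81 (-0.06 to 1.70). EXO1, an exonuclease of mismatch repair, had 26 counts in basal and 18 in luminal and a log2 ratio of 0.75 (-0.17 to 1.70). These 3 reached 1.5-fold, but TYMS alone exceeded counting error, and without SF3A1 in the scale it came within it. MYBL2 excluded 1 without PSMC4 and without RPLP0. The DNA repair gene RAD50, of the MRE11 complex, also reached 1.5-fold, with 16 counts in basal and 12 in luminal and a wide interval (log2 -0.54 to 1.85). CDC6, which loads the replicative helicase, had 16 counts in basal and 14 in luminal, and the transcription factor MYC had 95 in basal and 94 in luminal. RRM2, the small subunit of ribonucleotide reductase, had 50 counts in basal and 61 in luminal, and ORC6L (ORC6), of the origin recognition complex, had 17 in basal and 21 in luminal. RRM2 and ORC6L were the 2 with ratios below 1, at -0.07 and -0.08 on the log2 scale. The cyclin CCNE1, below the limit of 10, had 2 counts in basal and 6 in luminal.

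**Figure D3:**
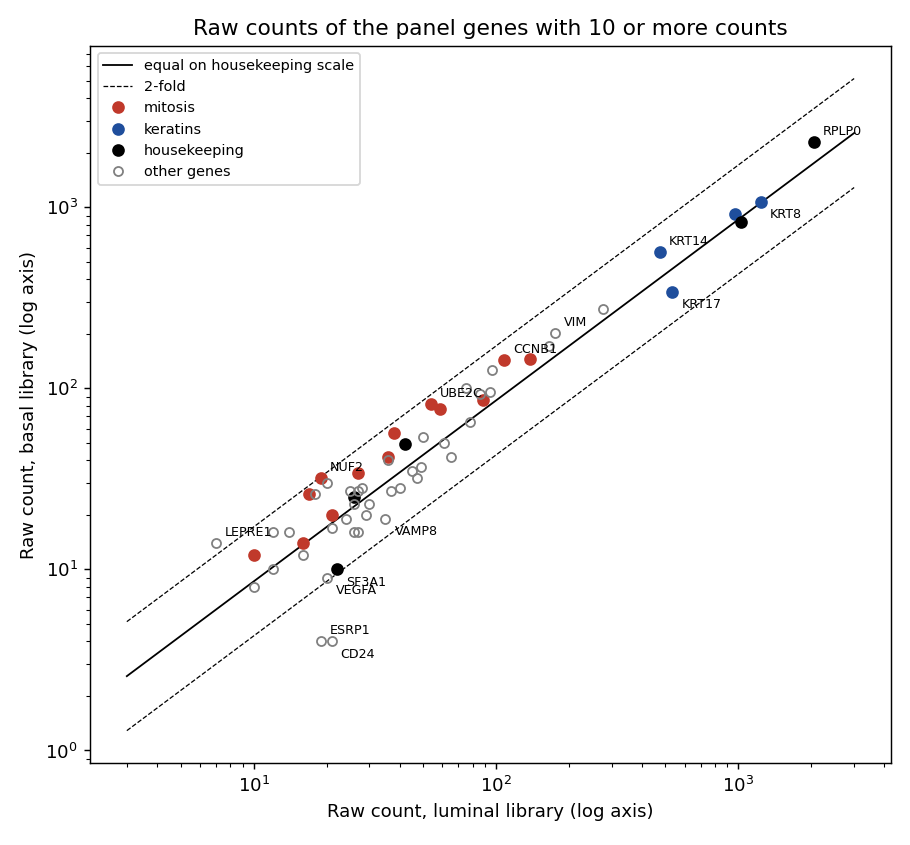
Each point is a gene, with its raw count in the luminal library on the x axis and in the basal library on the y axis, both on log axes. The solid line marks equal levels on the housekeeping scale and the dashed lines 2-fold. Mitotic genes (red) lie on or above the solid line, KRT14 above it, KRT17 below it, and CD24 and ESRP1 lie below the lower dashed line with 4 counts each in basal.

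The labels were checked against lineage markers, and the panel holds few that could separate the 2 libraries. Of 10 basal markers 5 are on the panel, and of 11 luminal markers 8 are. The luminal markers KRT19, ESR1, PGR and GATA3 were listed at 1 in both libraries, and FOXA1, a pioneer factor of the luminal lineage, had 3 counts in basal and 5 in luminal. KRT8 had 1076 counts in basal and 1239 in luminal, equal within counting error on the housekeeping scale, while its interval lay below 1 under total count, under the median of ratios and without SF3A1 and above 1 without PSMC4. CD24, with 4 counts in basal and 21 in luminal, lay towards the luminal side. The adhesion molecule EPCAM, listed at 1 in basal with 6 counts in luminal, was below the limit of 10. Its interval included 1 (log2 -7.89 to 0.68). Of the basal markers KRT14 and VIM were higher in basal, KRT5 was 1.10-fold higher, CDH3 had 37 counts in basal and 49 in luminal, and KRT17 was lower. The panel markers thus go both ways. The 11 markers looked for of fibroblasts, endothelium, immune cells and adipocytes, such as COL1A1 and PTPRC, are not on the panel.

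Among the keratins, KRT14 was higher and KRT17 lower in basal on the 8 scales that do not use the spikes, and on the spike scales both were higher, KRT17 less so. Keratins form the intermediate filaments of epithelial cells as pairs of a type I and a type II chain, and KRT14 and KRT17 are type I keratins of basal cells. KRT14 had a normalised count of 477 (439 to 518) in basal and 343 (313 to 375) in luminal. KRT17 had 289 (259 to 321) in basal and 387 (355 to 421) in luminal. Neither pair of intervals overlapped, and the 2 genes lay on opposite sides of equal levels. There were 1.65 counts of KRT14 for each count of KRT17 in basal and 0.886 in luminal, a log2 difference of 0.90 (0.63 to 1.17, exact conditional interval) that needs no scale. Type II KRT5, the usual partner of KRT14, had 917 counts in basal and 972 in luminal, or a log2 ratio of 0.14 (0.01 to 0.27) whose sign turned without SF3A1, under total count and under the median of ratios. Against KRT5, KRT14 was higher in basal by 0.34 (0.12 to 0.56) and KRT17 lower, the KRT5 to KRT17 difference being 0.56 (0.32 to 0.80). Against the luminal keratin KRT8, which was level on the housekeeping scale, KRT14 was higher in basal by 0.46 (0.24 to 0.68). This nearly repeats the KRT14 log2 ratio of 0.48 on that scale and is no separate check. Together the 4 keratins made up 32.6% of endogenous counts in basal (31.7 to 33.6) and 35.2% in luminal (34.2 to 36.2). KRT14 and KRT17 have closely similar paralogs, and the probe sequences were not used here, so sharing of signal among them was not tested.

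**Figure D4:**
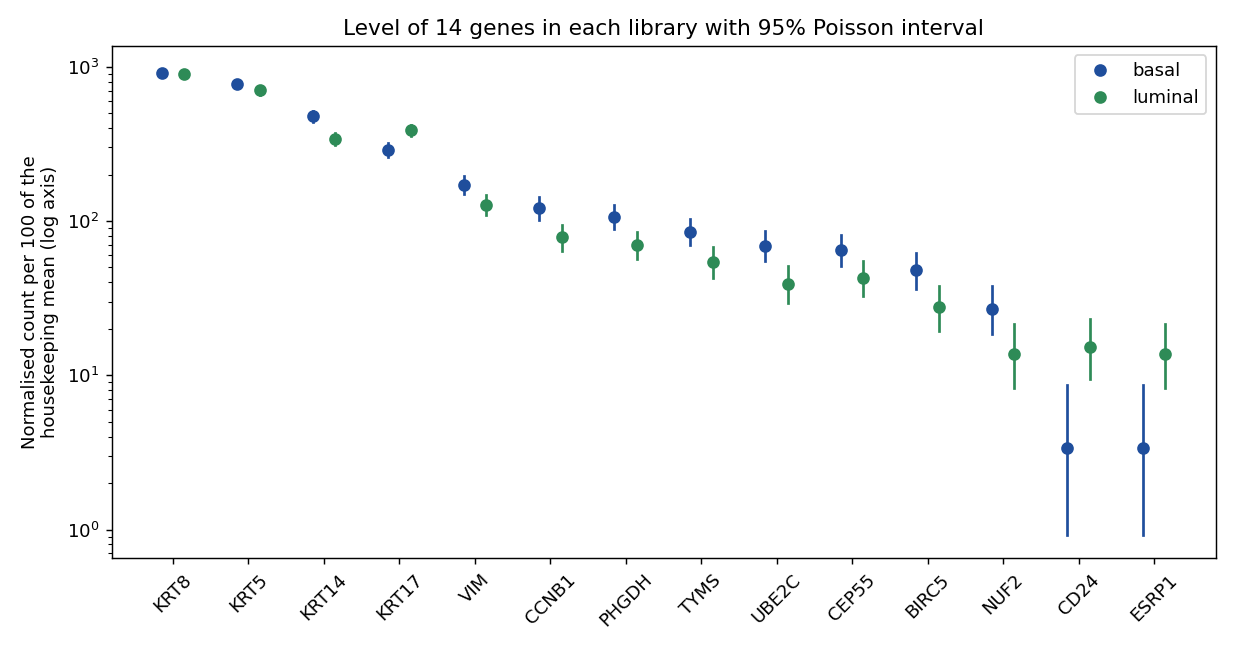
Points are normalised counts per 100 of the housekeeping mean on a log axis for 14 genes, basal (blue) left of luminal (green), with exact 95% Poisson intervals of 1 library each. The genes drawn are KRT8 and those whose ratio intervals excluded 1 on the housekeeping scale, so other cell cycle genes are not shown. KRT14, VIM and the cell cycle genes drawn are higher in basal, KRT17, CD24 and ESRP1 are lower, and KRT8 is level at 909 in basal and 898 in luminal.

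CD24 and ESRP1 showed the largest differences among the 59 genes, at low counts. CD24, a small surface glycoprotein on a lipid anchor, had 4 counts in basal and 21 in luminal, 4.50-fold lower in basal (log2 -2.17, -4.17 to -0.60). ESRP1, which directs epithelial exon choice in splicing, had 4 counts in basal and 19 in luminal, 4.07-fold lower (log2 -2.03, -4.04 to -0.44). Set against KRT8 of the same library in place of the housekeeping scale, the differences were -2.19 (-4.20 to -0.61) for CD24 and -2.04 (-4.06 to -0.45) for ESRP1. KRT8 had a log2 ratio of 0.02 on the housekeeping scale, so these values nearly repeat the ratios above and are no separate check. Both passed the limit of 10 through the luminal library alone, as did VEGFA, SPINT1 and 1 survival regulator, while LEPRE1 passed through basal alone. The intervals take no account of entry through 1 library alone. With 10 or more counts asked of both libraries, 53 genes remain and none of them reaches 2-fold.

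Other epithelial genes lay on both sides of equal levels, all with intervals that included 1 on the housekeeping scale. Of 6 cell junction genes 3 had 10 or more counts. JUP, plakoglobin of desmosomes and adherens junctions, had 42 counts in basal and 65 in luminal, for a log2 ratio of -0.41 (-1.005 to 0.17). F11R, the tight junction adhesion molecule JAM-A, had 28 counts in basal and 40 in luminal. DSP, desmoplakin, had 275 counts in basal and 276 in luminal and a log2 ratio of 0.22 (-0.03 to 0.46). JUP set against DSP gave a log2 difference of -0.62, basal minus luminal, with an interval from -1.27 to 0.01. These were the lowest and the highest ratio of the 3 junction genes, and the interval takes no account of that choice. CLDN7, a claudin, had 2 counts in basal and 7 in luminal, and CLDN3 and CLDN4 were listed at 1 in both. JUP had an interval that excluded 1, lower in basal, without SF3A1 and under total count, and DSP one that excluded 1, higher in basal, without MRPL19, PSMC4 or RPLP0.

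VAMP8, a SNARE of vesicle fusion, had 19 counts in basal and 35 in luminal, or a log2 ratio of -0.66 (-1.55 to 0.19), past 1.5-fold. It and the 4 genes that follow were grouped after their values were seen. NT5E, the ectonucleotidase CD73, had 27 counts in basal and 37 in luminal. SPINT2, an inhibitor of serine proteases, had 93 counts in basal and 86 in luminal, and its relative SPINT1 and the collagen receptor DDR1 had log2 ratios of -0.10 and -0.04. VAMP8 excluded 1 without SF3A1, lower in basal, and SPINT2 without PSMC4, higher. Of 14 other luminal lineage genes on the panel 2 had 10 or more counts. BLVRA, biliverdin reductase, had 20 counts in basal and 29 in luminal, and SLC39A6, a zinc transporter, had 12 in basal and 16 in luminal. Among those with fewer, GPR160, an orphan receptor, had 2 counts in basal and 6 in luminal, and CXXC5 had 3 in basal and 4 in luminal. BCL2 and NAT1 went the other way, each with 3 counts in basal and a listed 1 in luminal, and BAG1 had 4 in each.

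Mesenchymal and basal-like genes gave a mixed picture in which VIM and PHGDH stood out. VIM, vimentin, had 203 counts in basal and 175 in luminal, with normalised counts of 171 (149 to 197) in basal and 127 (109 to 147) in luminal. Its log2 ratio was 0.44 (0.14 to 0.74). Relative to KRT8, which was level on the housekeeping scale, VIM was higher in basal by 0.42 on the log2 scale (0.09 to 0.74), which nearly repeats that ratio. PHGDH, the first enzyme of serine synthesis and a gene of basal-like breast cancers, had 126 counts in basal and 96 in luminal, 1.53-fold higher (log2 0.61, 0.22 to 1.01). VIM and PHGDH came within counting error of 1 without SF3A1, and VIM also under total count and the median of ratios. LEPRE1 (P3H1), a prolyl hydroxylase of collagen, had 14 counts in basal and 7 in luminal, the only ratio past 2-fold towards basal, with an interval that included 1 (log2 1.22, -0.18 to 2.77). EMP3, a tetraspan membrane protein, had 16 counts in basal and 27 in luminal, for a log2 ratio of -0.53 (-1.52 to 0.41), and GNG11, a G protein gamma subunit, had 27 in basal and 25 in luminal. CAV1, caveolin-1, had 65 counts in basal and 78 in luminal, and SFRP1, a secreted Wnt antagonist, had 27 in each. LEPRE1, EMP3 and GNG11 were grouped after their values were seen. ZEB1, a repressor of epithelial genes, had 2 counts in each library.

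Hypoxia and VEGF signature genes lay mostly below equal levels in basal on the housekeeping scale, each within counting error. Of 13 on the panel 8 had 10 or more counts, 6 of these had ratios below 1 and 2 above, against 24 and 35 of the 59 genes, and the median log2 ratio was -0.15. On this scale 0 of the 8 intervals excluded 1, close to the 5.08% of the 59 genes that were lower, and DDIT4 excluded 1, higher in basal, without PSMC4 and without RPLP0. SLC16A3 was placed in this group after its values were seen. VEGFA, the angiogenic growth factor, had 9 counts in basal and 20 in luminal and a log2 ratio of -0.93 (-2.25 to 0.27). ANGPTL4, an inhibitor of lipoprotein lipase, had 16 counts in basal and 26 in luminal, or a log2 ratio of -0.48 (-1.48 to 0.47). NDRG1, a stress-responsive gene, had 32 counts in basal and 47 in luminal. VEGFA was the only one of the 8 past 1.5-fold, where 6.78% of the 59 genes were lower. The fatty acid binding protein FABP5 had 23 counts in basal and 30 in luminal, the lactate exporter SLC16A3 35 in basal and 45 in luminal, and the lysyl hydroxylase PLOD1 19 in basal and 24 in luminal. The 2 above 1 were DDIT4, an inhibitor of mTORC1, with 171 counts in basal and 165 in luminal, and PNP, a purine phosphorylase, with 28 in each. VEGFA set against DDIT4 gave a log2 difference of -1.20, basal minus luminal (-2.56 to 0.05). These 2 had the lowest and the highest ratio of the 8, and the interval takes no account of that choice. ADM had 2 counts in basal and 3 in luminal.

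Of 7 growth factor receptors and adaptors on the panel 2 had 10 or more counts, and the intervals of both included 1. EGFR had 40 counts in basal and 36 in luminal, for a log2 ratio of 0.37 (-0.31 to 1.06), and MET, the receptor of hepatocyte growth factor, had 54 in basal and 50 in luminal and a log2 ratio of 0.33 (-0.25 to 0.92). ERBB2 had 1 count in basal and 4 in luminal, GRB7 had 3 in basal and 2 in luminal, and ERBB3, ERBB4 and FGFR4 were listed at 1 in both. The 4 tumour suppressors and survival regulators with 10 or more counts had log2 ratios between -0.48 and 0.22, all with intervals that included 1, among them RB1, the retinoblastoma protein that restrains cell cycle entry, with 23 counts in basal and 26 in luminal. Of the 46 panel genes below the limit of 10, 26 were listed at 1 in both libraries and the other 20 could not be compared at this depth.

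Set beside the far deeper stem library, the genes that separate basal from luminal did not all single out the same library. These placements use the housekeeping scale alone and intervals of counting error only, and no other scale was applied to stem. RPLP0, part of that scale, stood at 1081 in stem, 1936 in basal and 1478 in luminal. Some placements are narrow: VIM, at 109.5 in stem, lay just above the luminal lower bound of 108.7. TYMS, at 70.8 in stem, lay just above the luminal upper bound of 68.1 and the basal lower bound of 69.5. KRT14 stood at 333 normalised counts in stem and KRT17 at 382, both inside the Poisson interval of the luminal library and outside that of basal. The same held for CCNB1, at 74.6 in stem, for VIM, at 109, and for NUF2, at 17.5. In contrast, stem lay inside the basal interval and outside the luminal one for PHGDH, at 106 in basal, 69.6 in luminal and 104 in stem. It also held for BIRC5, at 48.1 in basal, 27.5 in luminal and 55.3 in stem, for CEP55, at 65.0 in basal, 42.8 in luminal and 59.5 in stem, and for TYMS and CD24. ESRP1, at 3.38 in basal, 13.8 in luminal and 23.8 in stem, lay above both intervals. KRT5, at 475 in stem, and KRT8, at 648, lay below both. UBE2C, at 54.97 in stem, lay between the luminal and basal intervals, just under the basal lower bound of 55.09.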

How the data were processed

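RNA of 110 endogenous genes was counted in 3 MCF10A libraries, 1 per subpopulation. The authors deposited raw barcode counts per probe with no normalization, per the file headers, and log2 values for 105 genes. Recomputed as each count relative to the housekeeping mean of its library (RPLP0, ACTB, PSMC4, MRPL19 and SF3A1) on the log2 scale, the deposited log2 values were recovered (largest difference 3.53e-09). Steps before the counts are not given in the sources used here.

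Groups came from the labels. Counts were scaled by the housekeeping geometric mean, and ratios were given exact conditional (Clopper-Pearson) 95% intervals, which cover counting error only. The interval code was tested on simulated data. Named were all genes with 10 or more counts in either library, with ratio and interval for those at 1.5-fold, with intervals excluding 1, or of lineage interest. Some tumour suppressor results are not reported here. The members and lists were chosen with earlier results of these data known, and some genes were grouped after their values were seen. All 110 probe accessions or names matched RefSeq (GRCh38.p14) symbols, 4 of them newer. Python 3.11.15, SciPy 1.17.1, pandas 2.3.3 and NumPy 2.4.6 were used. Alternatives covered the scale, background subtraction, the count minimum, the fold limit and the deposited values.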

Additional observations from a re-analysis of the deposited data

Results flagged for a closer look

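The spiked positive control probes were read only as alternative scales. They summed to 776 counts in the basal library and 2795 in the luminal library. They are listed here because these probes are outside the compared genes, and spiked RNA gives counts in every library by design. Endogenous counts per spike count were 11.5 in basal and 3.27 in luminal, and 11.4 in stem. Probe A had 623 counts in basal and 2256 in luminal, and probe D 12 in basal and 42 in luminal.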

How the results depend on the processing

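Results depended most on the scale. Of the 59 genes, 12 were 1.5-fold or more higher in basal and 4 lower, 1 and 2 at 2-fold, and 10 and 3 had intervals excluding 1. Under total count the 1.5-fold counts were 6 higher and 9 lower, and intervals excluded 1 for 6 and 5. Under the median of ratios they were 7 and 7, and 6 higher excluded 1. Without SF3A1 they were 4 and 9, with 0 higher at 2-fold, and 3 and 6 excluded 1. Genes higher at 2-fold numbered 2 without MRPL19, PSMC4 or RPLP0 and with the negative control mean subtracted, and 17 higher excluded 1 without PSMC4. On positive controls A to F, 55 were higher and 2 lower at 1.5-fold, 44 and 0 at 2-fold, and 47 and 0 excluded 1, and on A to D 57 and 0, 55 and 0, and 55 and 0. Median log2 ratios on A to F and on A to D were 1.38 and 1.84 for the 59 genes, 1.75 and 2.20 for mitosis, 1.61 and 2.06 for DNA synthesis, 1.33 and 1.79 for basal keratins, 1.28 and 1.74 for other basal-like genes, 1.05 and 1.505 for tumour suppressors, 1.04 and 1.499 for hypoxia and 0.90 and 1.36 for junctions. KRT5 came to -0.045 under total count, -0.020 under the median of ratios and -0.092 without SF3A1, and KRT17 to 0.77 and 1.23 on A to F and A to D.

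With a minimum of 5 counts 8 genes were lower at 1.5-fold and 6 at 2-fold, with a minimum of 20 there were 0 higher and 1 lower at 2-fold, and with every gene listed above 1 there were 12 lower at 1.5-fold, 4 higher and 9 lower at 2-fold. With 10 counts in both libraries 1 was lower at 1.5-fold, 0 and 0 passed 2-fold and 1 lower excluded 1. At 3-fold 0 were higher. The deposited log2 values follow the same formula as the main ratios, and none of the 59 genes had a listed 1 in either library. Using the deposited values or reading a listed 1 as 0 therefore could not change any ratio. The interval widened by the scale error was added after seeing the data. The cause of these changes was not tested, beyond fewer genes entering under a higher minimum. Depth limits genes under 20 counts, whose median half-width was 1.35. No paired analysis was possible because each subpopulation has 1 library.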
